A study of Homo sapiens with 6 samples.

Results

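The DNA replication machinery comprised 53 listed genes, which code for the proteins that mark, open and copy replication origins, supply nucleotides and steady the fork. They were chosen as the rows of the deposited table whose Ensembl identifier maps to a listed symbol, and all 53 were found among 61853 entries. Total RNA was sequenced from cells of H9, an established line of human embryonic stem cells. The day 30 group consisted of 3 libraries of H9 cells turned in culture into neurons that the labels call arcuate, after the hypothalamic nucleus that controls appetite. These cells were exposed to sonic hedgehog and purmorphamine, an agonist of its pathway, and to SB431542 and LDN-193189, which block TGF-beta and BMP signalling. They then received B-27 supplement and DAPT, which blocks Notch signalling, and last B-27 and the neurotrophin BDNF. They were reseeded once on the way, with a ROCK inhibitor. The day 0 group consisted of 3 libraries of H9 cells taken before that treatment, so that both groups share 1 line and 1 genotype. The labels leave unsaid whether each replicate was its own culture, so p-values measure only the spread between these libraries.

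Before a cell divides, the origin recognition complex, CDC6 and CDT1 load a ring of MCM2 to MCM7 onto DNA. In S phase the kinase CDC7 with DBF4 lets CDC45 and the GINS complex join this ring, which then unwinds DNA, while the polymerases alpha, delta and epsilon copy it with the help of the sliding clamp PCNA. Stem cells cycle fast and keep this machinery abundant, whereas neurons have left the cell cycle for good, and many of these genes are switched on for S phase by E2F factors, which proteins of the RB family hold in check.

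Nearly the whole machinery was lower in the day 30 neurons. Of 53 members, 52 fell at a Benjamini-Hochberg adjusted p under 0.05 in edgeR's quasi-likelihood test, where 76.6% of all 18040 genes tested passed in either direction and 36.8% were lower. A fall of at least 2-fold was seen for 50 members and for 24.7% of all genes. The number of members that rose was 0 in edgeR, 0 also at an unadjusted p under 0.05 and 0 in DESeq2's Wald test, beside 39.8% of all genes in edgeR. The median log2 change of the members, day 30 against day 0, was −3.27 with quartiles of −4.46 and −2.32, and the median of all genes tested was 0.08 with quartiles of −0.99 and 1.33. A fall of 3 or more on the log2 scale was seen for 33 members, and 7.03% of all genes tested passed with a fall of that size. For 51 members the CPM (counts scaled to the library's total) of all day 30 libraries lay below those of all day 0 libraries, as they did for 35.9% of all genes tested. In these bulk samples, fewer cells that express a gene and less RNA per cell cannot be told apart.

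Together the 53 genes held 0.0661%, 0.0690% and 0.0721% of all counts in the day 30 libraries, against 0.491%, 0.470% and 0.470% in the day 0 libraries. The mean share was 0.0691% ± 0.00298 on day 30, 6.91-fold lower than the 0.477% ± 0.0118 on day 0 (SD, n = 3 each). Every member had at least 119 counts in each day 0 library. On day 30 the counts were far lower, down to 1, and 9 members had fewer than 10 counts in at least 1 library. All 53 passed the filter on low counts. MCM10, CDT1, CDC45, GINS2, GINS3, POLE2, TK1 and TIPIN were under 1.21 CPM, the level that the filter's minimum of 10 counts stands for, in at least 1 day 30 library. They passed through their day 0 level, so the filter favoured their fall, which is no support of its own.

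**Figure D1:**
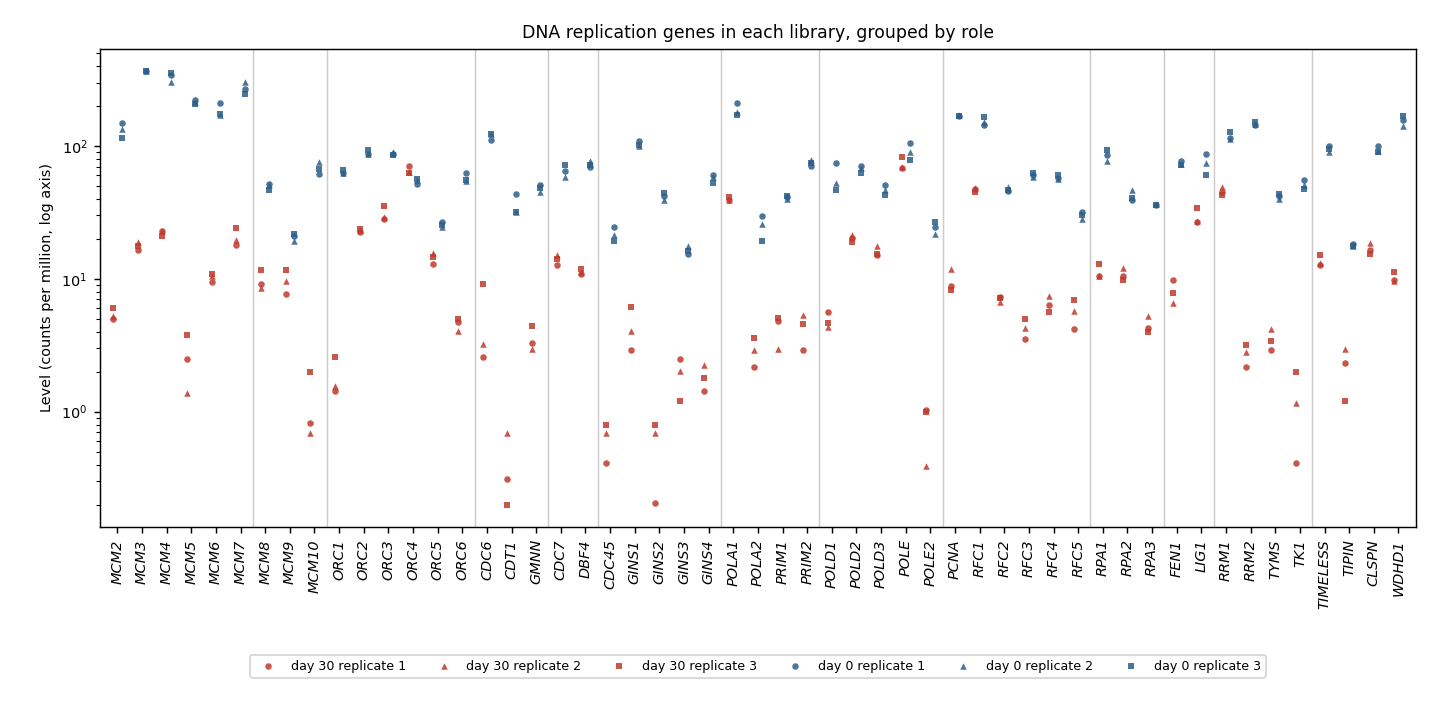
Level of each of the 53 genes in CPM on a log axis, with day 30 libraries in red left of day 0 libraries in blue and the replicates as circles, triangles and squares. Vertical lines part the roles. The red and blue points stand apart for every gene but POLE, and ORC4 alone has its red points above the blue ones.

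Total counts ranged from 5013643 to 12924842 in the day 30 libraries and from 7178453 to 8794008 in the day 0 libraries. The labels were checked against marker lists. All 15 pan-neuronal markers rose, with a summed level of 8470 to 9980 CPM on day 30 and 243 to 258 CPM on day 0. Of 14 arcuate and hypothalamic markers 8 were tested and all 8 rose, among them POMC, whereas RAX, NPY, AGRP, HMX2, HMX3 and LHX2 had too few reads and HMX2 had none on day 30. All 8 were under 1.21 CPM in at least 1 day 0 library and passed the filter through day 30, as did 3 of the pan-neuronal markers. The filter thus favoured the rise of these markers, which is no check of its own. All 12 pluripotency markers and all 15 mitotic markers fell, among the mitotic ones MKI67, with 6.61, 7.58 and 18.0 CPM on day 30, against 339, 252 and 272 CPM on day 0. Of these, 8 pluripotency and 5 mitotic markers passed the filter through day 0, so the filter favoured their fall, which is likewise no check of its own. Neural progenitor markers moved both ways, with 5 lower and 3 higher of 10 tested, a summed level of 990 to 1220 CPM on day 30 and 1560 to 2340 CPM on day 0, and HES5 without reads on either day. Of 7 astroglia markers, 3 fell and 1 rose, and GFAP, S100B and ALDH1L1 had too few reads to be tested. Their summed level was 276 to 397 CPM on day 30 and 716 to 1130 CPM on day 0.

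The promoters of the members were read for words that E2F factors bind. Windows of 300 bases, from 250 before to 50 after the gene start, were taken from RefSeq (GRCh38.p14), where 47 of the 53 members matched. MCM4, MCM5, GINS4, POLD3, RPA2 and RPA3 were not matched. The 4 E2F words searched on both strands were TTTCCCGC, TTTGGCGC, TTTCGCGC and TTTGCCGC. At least 1 of them stood in 20 of the 47 member windows (42.6%), in 908 of all 27305 windows (3.33%) and in 615 of the 11968 windows of genes tested (5.14%). Among genes that fell by 2-fold or more on day 30 it stood in 204 of 2972 windows (6.86%), and among genes that rose in 166 of 4647 (3.57%). The CCAAT box, searched as CCAAT on both strands, stood in 57.4% of member windows, 36.4% of those of genes tested and 35.7% of all windows. The cell cycle homology region, searched as TTTGAA on both strands, stood in 4.26% of member windows, 10.0% of those of genes tested and 15.4% of all windows. A match of letters is a description and not a bound site.

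**Figure D2:**
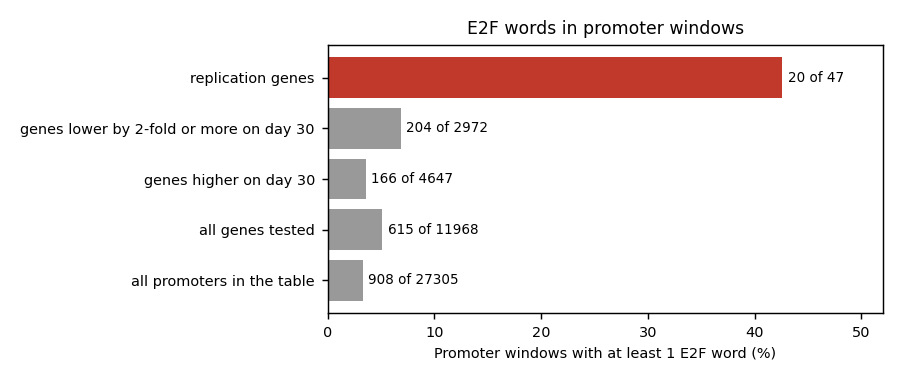
Share of promoter windows that hold at least 1 of the 4 E2F words on either strand, in percent, with the number of windows beside each bar. The replication genes stand at 42.6%, and the other bars, which include these genes where they qualify, lie between 3.33% and 6.86%.

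Windows of 160 bases that end just before the RefSeq gene start are shown for 8 members, as read 5′ to 3′ on the gene's strand. They were picked to show how the words sit in genes with large falls, in a gene with a word and a small fall (POLE) and in the gene that did not fall (ORC4). Capitals mark the E2F words. A word on the strand opposite the gene is printed as its reverse complement.
MCM6, chr2:135876444-135876603, minus strand: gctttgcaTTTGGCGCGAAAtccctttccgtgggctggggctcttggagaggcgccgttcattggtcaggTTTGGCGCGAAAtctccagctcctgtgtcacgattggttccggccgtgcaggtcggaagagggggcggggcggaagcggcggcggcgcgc
GINS2, chr16:85688955-85689114, minus strand: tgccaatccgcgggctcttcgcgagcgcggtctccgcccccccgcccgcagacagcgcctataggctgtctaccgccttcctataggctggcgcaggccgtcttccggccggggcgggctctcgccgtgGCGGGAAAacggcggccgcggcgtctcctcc
CDT1, chr16:88803629-88803788, plus strand: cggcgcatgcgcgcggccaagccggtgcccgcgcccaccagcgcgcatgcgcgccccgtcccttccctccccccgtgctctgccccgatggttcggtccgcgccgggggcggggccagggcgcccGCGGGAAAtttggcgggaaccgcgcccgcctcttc
PCNA, chr20:5126623-5126782, minus strand: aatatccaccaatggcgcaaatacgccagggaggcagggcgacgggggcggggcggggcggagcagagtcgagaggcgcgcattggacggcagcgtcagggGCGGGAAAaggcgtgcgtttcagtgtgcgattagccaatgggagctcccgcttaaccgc
RFC3, chr13:33817989-33818148, plus strand: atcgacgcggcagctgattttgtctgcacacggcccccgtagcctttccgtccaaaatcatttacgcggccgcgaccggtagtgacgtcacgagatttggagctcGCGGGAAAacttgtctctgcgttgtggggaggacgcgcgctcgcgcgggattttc
TYMS, chr18:657493-657652, plus strand: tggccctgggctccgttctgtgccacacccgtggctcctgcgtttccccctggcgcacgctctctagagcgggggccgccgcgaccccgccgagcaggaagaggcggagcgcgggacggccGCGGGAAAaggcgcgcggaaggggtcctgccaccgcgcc
POLE, chr12:132687343-132687502, minus strand: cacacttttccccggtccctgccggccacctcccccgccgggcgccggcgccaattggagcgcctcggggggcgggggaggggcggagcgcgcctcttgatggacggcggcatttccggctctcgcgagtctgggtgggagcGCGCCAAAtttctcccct
ORC4, chr2:148021552-148021711, minus strand: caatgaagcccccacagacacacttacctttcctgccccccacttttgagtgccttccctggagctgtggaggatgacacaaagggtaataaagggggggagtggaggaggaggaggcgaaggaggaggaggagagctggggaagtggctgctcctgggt
MCM6 carried 4 words in 2 places, and in each place a word on the gene's strand overlaps a word on the opposite strand. No word was found in the ORC4 window. Members with a word had a median log2 change of −3.89 (n = 20, from −6.32 to −0.42), and members without a word −3.03 (n = 27, from −6.16 to 0.18), so both kinds spanned nearly the same range. MCM10, RRM2, TK1, CDC45 and ORC1, all with a log2 change of −5.19 or below, held none of the 4 words in this window. Only 1 window was read per gene, so a word at another start would be missed. The RRM2 window, 10122489 to 10122788, lies inside the gene, which starts at 10120698 in the annotation used for positions. The windows of GINS2, GINS3, CDT1, CDC45, MCM7, DBF4, POLD2, RFC4, RFC5, RPA1, FEN1 and LIG1 also lie inside their genes in that annotation.

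The MCM2 to MCM7 ring, the motor of the replicative helicase, fell as a whole. All 6 genes fell, with log2 changes between −6.63 and −3.83, and their summed level was 74.2 to 83.6 CPM on day 30 and 1470 to 1560 CPM on day 0. MCM5 (ENSG00000100297.16, chromosome 22, 35400063 to 35425430, hg38) fell furthest of the 53 genes. It had 2.48, 1.39 and 3.79 CPM in the day 30 libraries, against 222, 216 and 208 CPM in the day 0 libraries. The groups lie far apart, and relative to their mean the day 30 libraries differ among themselves by more than the day 0 libraries do. The log2 change was −6.63 ± 0.23 (SE, edgeR adjusted p = 2.37e-09), a level 99.4-fold lower on day 30. GINS2, CDT1 and MCM10 came close, at −6.32, −6.30 and −6.16. The rank of MCM5 is not firm, as CDT1 had −7.02 without day 30 replicate 2. Over the alternatives MCM5 reached −6.88 at the lowest.

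The other 5 ring subunits lay closer together, with log2 changes of −4.72 for MCM2, −4.46 for MCM3, −4.26 for MCM6, −3.99 for MCM4 and −3.83 for MCM7 and standard errors of 0.12 to 0.14. MCM7 averaged 20.6 ± 3.31 CPM on day 30 and 272 ± 28.9 CPM on day 0 (SD, n = 3 each). The level of MCM5 as a ratio to MCM7 in the same library, which no scaling of libraries can change, was 0.138, 0.0711 and 0.156 on day 30, against 0.829, 0.713 and 0.846 on day 0. MCM5 and MCM7 were paired because they had the largest and the smallest fall of the ring. A lower ratio on day 30 thus follows from this choice and is no support of its own. The ratios given below for other roles were picked the same way. Per kb of exon, the 6 subunits spanned 13.9-fold on day 30, from MCM3 at 4.85 to MCM5 at 0.348 CPM per kb, and 3.74-fold on day 0, from MCM3 at 101 to MCM2 at 27.0 CPM per kb. The order of the subunits was MCM3, MCM7, MCM4 and MCM6 on both days, and MCM5 and MCM2 changed places at the low end. On day 30 MCM3 and MCM7, at 4.85 and 4.70 CPM per kb, differed by less than their spread between libraries.

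Other MCM proteins fell less evenly. MCM10, which helps the loaded helicase start, had 0.826, 0.696 and 1.99 CPM in the day 30 libraries, against 61.7, 75.5 and 66.7 CPM in the day 0 libraries, a log2 change of −6.16 ± 0.26 (edgeR adjusted p = 6.73e-09). MCM8 and MCM9, which work as a pair in DNA repair by homologous recombination rather than in origin firing, fell by 2.47 and 1.22 on the log2 scale. MCM9 averaged 9.61 ± 1.97 CPM on day 30 and 20.7 ± 1.19 CPM on day 0 (SD, n = 3 each). It shares 1.1% of its exon bases with ASF1A on the opposite strand, and no source used here gives the strand setting of the counting.

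The origin recognition complex split by subunit, with 5 of 6 genes lower. ORC1, the subunit that human cells make anew in each G1 phase, had 1.44, 1.55 and 2.59 CPM in the day 30 libraries, against 62.9, 62.5 and 65.6 CPM in the day 0 libraries. Its log2 change was −5.28 ± 0.19 (edgeR adjusted p = 2.7e-09). ORC6 followed with −3.76, and ORC2, ORC3 and ORC5 had −2.03, −1.61 and −0.92.

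ORC4 (ENSG00000115947.14, chromosome 2, 147930397 to 148021604, hg38), a core ATPase subunit, was the single member that did not pass the test. It had 71.1, 64.0 and 62.8 CPM in the day 30 libraries, against 52.2, 55.0 and 56.9 CPM in the day 0 libraries. All day 30 libraries lie above all day 0 libraries, as they did for 43.5% of all genes tested. Its log2 value was 0.18 ± 0.12 (edgeR adjusted p = 0.197), and over the alternatives the adjusted p ranged from 0.0344 to 0.59. With total counts as the only scaling it passed as higher, at 0.27 (adjusted p = 0.0344), and likewise under the stricter filter on low counts, at 0.27 (adjusted p = 0.0444). Exons of ORC4 overlap those of ACVR2A and MBD5 on the opposite strand, over 4.8% and 1.8% of its exon bases, and these neighbours had log2 changes of 1.81 and 1.68. Their part in the ORC4 value was not tested.

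Per kb of exon, ORC3 had the highest mean of the subunits on both days, at 8.36 CPM per kb on day 30 and 23.8 CPM per kb on day 0. On day 30 ORC4 came close to ORC3, and the libraries of both genes overlapped in range, so this rank is not firm. The lowest subunit was ORC1 at 0.590 CPM per kb on day 30, and on day 0 it was ORC4 at 6.14 CPM per kb. The ratio of ORC1 to ORC4 within a library was 0.0203, 0.0242 and 0.0413 on day 30, against 1.20, 1.14 and 1.15 on day 0.

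**Figure D3:**
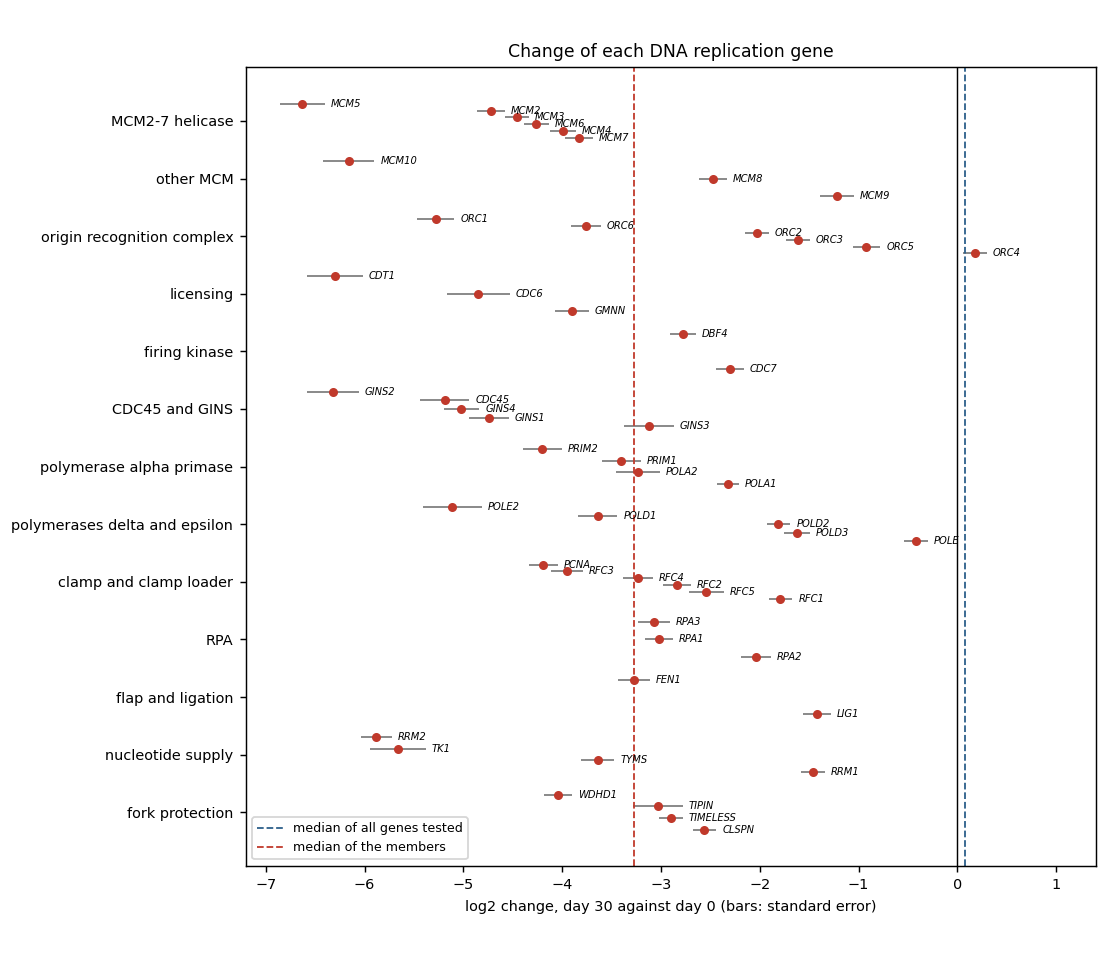
Log2 change of each member, day 30 against day 0, by role, with bars for the standard error. The red dashed line is the median of the members at −3.27 and the blue one the median of all genes tested at 0.08. MCM5 lies furthest left at −6.63, and ORC4 lies right of 0 at 0.18.

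Licensing factors, which load the MCM ring, all fell. CDT1, the loader that must be destroyed once S phase begins, had 0.310, 0.696 and 0.199 CPM in the day 30 libraries, from 3, 9 and 1 counts, against 43.4, 31.9 and 32.0 CPM in the day 0 libraries. Its log2 change was −6.30 ± 0.28 (edgeR adjusted p = 1.02e-08), and it was −7.02 without day 30 replicate 2. CDC6 (ENSG00000094804.12, chromosome 17, 40287633 to 40304657), the ATPase that acts with ORC1, had 2.58, 3.21 and 9.08 CPM on day 30, against 111, 123 and 123 CPM on day 0. Day 30 replicate 3 thus held the most CDC6 of its group, and the log2 change was −4.85 ± 0.32. Geminin (GMNN), the inhibitor of CDT1, fell by 3.90, to 3.54 ± 0.753 CPM on day 30, against 48.1 ± 2.91 CPM on day 0 (SD, n = 3 each).

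Both parts of the firing kinase fell. DBF4, the activating subunit, had 10.8, 11.3 and 11.8 CPM in the day 30 libraries, against 69.3, 77.6 and 71.9 CPM in the day 0 libraries, a log2 change of −2.78 ± 0.13. The catalytic subunit CDC7 had −2.30 ± 0.14. The ratio of DBF4 to CDC7 was 0.741 to 0.854 on day 30 and 1.01 to 1.32 on day 0.

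CDC45 and the GINS complex, which join the ring to make the active helicase, fell more steeply. GINS2 had 0.206, 0.696 and 0.798 CPM in the day 30 libraries, against 42.3, 39.4 and 44.3 CPM in the day 0 libraries, a log2 change of −6.32 ± 0.26 (edgeR adjusted p = 6.35e-09). CDC45 had −5.19, GINS4 −5.02 and GINS1 −4.74. GINS3 had the smallest fall of these, −3.12 ± 0.25, with 2.48, 2.01 and 1.20 CPM on day 30, against 15.3, 17.7 and 16.1 CPM on day 0. It also had the lowest level per kb of exon of the 5 genes on day 0, at 3.21 CPM per kb, against 25.5 CPM per kb for GINS1.

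Polymerase alpha and primase, which lay down the RNA and DNA primers, fell in all 4 genes. PRIM2, the large primase subunit, had 2.89, 5.34 and 4.59 CPM in the day 30 libraries, against 70.1, 78.2 and 74.1 CPM in the day 0 libraries (log2 change −4.20 ± 0.20, edgeR adjusted p = 1.39e-08). The catalytic polymerase subunit POLA1, on chromosome X, fell least of the 4, by 2.32, and had 39.4, 39.5 and 41.1 CPM on day 30, against 212, 181 and 170 CPM on day 0. PRIM1 and POLA2 had −3.40 and −3.23. Both share exon bases on the same strand with other genes, POLA2 over 35.1% of its exons and PRIM1 over 14.9% with 1 neighbour and 1.4% with NACA, so part of their counts is uncertain.

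The polymerases that extend the strands changed unevenly, with all 5 genes lower and 4 of them by 2-fold or more. Polymerase epsilon, which copies the leading strand, consists of a catalytic subunit, POLE, and smaller partners. POLE2 had 1.03, 0.387 and 0.997 CPM in the day 30 libraries, against 24.4, 21.7 and 26.8 CPM in the day 0 libraries, a log2 change of −5.11 ± 0.30 (edgeR adjusted p = 6.49e-08). POLE (ENSG00000177084.19, chromosome 12, 132623753 to 132687365) had 68.0, 69.0 and 82.5 CPM on day 30, against 106, 89.4 and 78.9 CPM on day 0. POLE was the only member of the 53 whose groups overlapped, through day 30 replicate 3 and day 0 replicate 3. It passed with a log2 change of −0.42 ± 0.12 (edgeR adjusted p = 0.00843, from 0.00406 to 0.0486 over the alternatives). POLE2 as a ratio to POLE was 0.0152, 0.00561 and 0.0121 on day 30, against 0.229, 0.243 and 0.340 on day 0.

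Polymerase delta, which copies the lagging strand, fell in all 3 subunits listed. The catalytic subunit POLD1 fell by 3.64, to 5.63, 4.37 and 4.69 CPM in the day 30 libraries, against 74.4, 52.3 and 46.5 CPM in the day 0 libraries. Its groups lie far apart, although day 0 replicate 1 stood above its group. POLD1 shares 8.6% of its exon bases with a gene on the same strand. POLD2 and POLD3 had −1.81 and −1.62, and of the 5 genes of both polymerases POLD2 was the most abundant per kb of exon on both days, at 5.48 CPM per kb on day 30 and 18.2 CPM per kb on day 0.

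**Figure D4:**
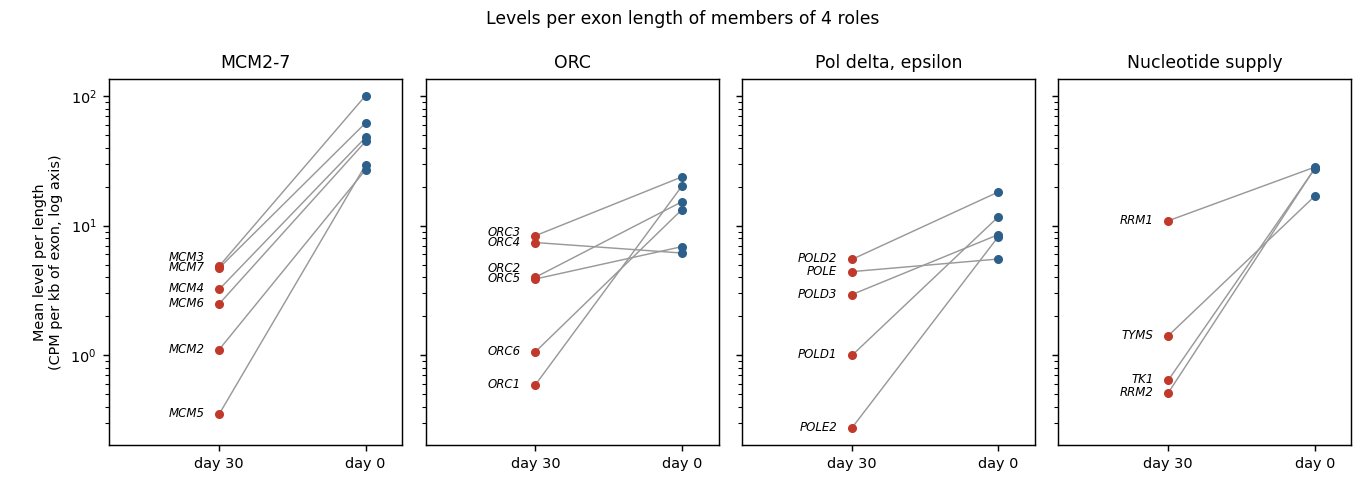
Mean level per kb of exon, on a log axis, of the members of 4 roles on day 30 (red) and day 0 (blue), with a line joining the points of each gene. Most lines fall together toward day 30, but MCM5, ORC1, POLE2 and RRM2 drop to the lowest level of their role, while the lines of ORC4 and POLE are nearly level.

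The sliding clamp and its loader fell in all 6 genes. PCNA (ENSG00000132646.11, chromosome 20, 5114953 to 5126626), the ring that holds polymerases on DNA and a common stain for dividing cells, had 8.88, 11.8 and 8.18 CPM in the day 30 libraries, against 169, 171 and 168 CPM in the day 0 libraries. Its log2 change was −4.19 ± 0.15 (edgeR adjusted p = 2.86e-09). Per kb of exon PCNA stood at 6.55 CPM per kb on day 30 and at 115 CPM per kb on day 0, the highest level of the 6 genes on day 0. On day 30 RFC1, the large loader subunit, stood at 7.00 CPM per kb, a difference from PCNA within the spread between libraries. RFC1 fell by 1.79, whereas the small loader subunits RFC2 to RFC5 had log2 changes between −2.54 and −3.95.

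Replication protein A, the trimer that coats single-stranded DNA in replication and repair, fell in all 3 subunits, with log2 changes of −3.07 for RPA3, −3.02 for RPA1 and −2.04 for RPA2. RPA3 had 4.23, 5.26 and 3.99 CPM in the day 30 libraries, against 36, 36.9 and 36 CPM in the day 0 libraries. The ratio of RPA3 to RPA2 was 0.402 to 0.436 on day 30 and 0.786 to 0.921 on day 0. The opposite strand of RPA3 carries exons of UMAD1 over 3.7% of its exon bases.

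Okazaki fragments are finished by FEN1, which cuts the displaced flap, and by the ligase LIG1. FEN1 had 9.86, 6.62 and 7.78 CPM in the day 30 libraries, against 76.5, 72.7 and 71.9 CPM in the day 0 libraries, a log2 change of −3.27 ± 0.16. LIG1 fell by 1.42 ± 0.14, to 29.4 ± 4.18 CPM on day 30, against 73.6 ± 13.0 CPM on day 0 (SD, n = 3 each). Thus LIG1 was the more abundant of the pair per kb of exon on day 30, at 4.47 against 3.26 CPM per kb for FEN1. On day 0 LIG1 was the less abundant, at 11.2 against 29.7 CPM per kb.

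Nucleotide supply fell in all 4 genes, and the partners of its main enzyme split. Ribonucleotide reductase makes deoxynucleotides from a large subunit, RRM1, and a small subunit that is made in S phase, RRM2. RRM2 (ENSG00000171848.16, chromosome 2, 10120698 to 10131419) had 2.17, 2.79 and 3.19 CPM in the day 30 libraries, against 145, 147 and 151 CPM in the day 0 libraries, a log2 change of −5.88 ± 0.16 (edgeR adjusted p = 7.7e-10). The day 30 libraries all lie far below, and 20.2% of its exon bases are shared with a gene on the same strand. RRM1 had 45.4, 48.8 and 42.9 CPM on day 30, against 115, 113 and 127 CPM on day 0, and its log2 change was −1.46 ± 0.12. The ratio of RRM2 to RRM1 was 0.0477, 0.0571 and 0.0744 on day 30, against 1.26, 1.30 and 1.19 on day 0. Per kb of exon, RRM1 stood 21.4-fold above RRM2 on day 30, and the 4 genes of this role spanned 1.67-fold on day 0.

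Thymidine kinase 1 (TK1), the salvage enzyme of cycling cells, had 0.413, 1.16 and 1.99 CPM in the day 30 libraries, against 55.5, 51.0 and 47.1 CPM in the day 0 libraries, a log2 change of −5.66 ± 0.28. TYMS, which makes thymidylate, fell by 3.64. Exons of ENOSF1 on the opposite strand cover 39.1% of the TYMS exon bases, and ENOSF1 itself had −0.96.

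Proteins that travel with the fork fell in all 4 genes. WDHD1, which ties polymerase alpha to the helicase, had 9.81, 9.67 and 11.3 CPM in the day 30 libraries, against 158, 141 and 169 CPM in the day 0 libraries, a log2 change of −4.04 ± 0.14 (edgeR adjusted p = 1.84e-09). TIMELESS and TIPIN, which form a complex that steadies the fork, had −2.90 ± 0.12 and −3.03 ± 0.25. TIPIN shares 21.0% of its exon bases with the pseudogene RPL9P25 on the same strand. RPL9P25 had 8.5 counts in all on day 30 and 1.5 on day 0. Claspin (CLSPN), the adaptor through which a stalled fork activates the checkpoint kinase CHK1, fell least, by 2.56, to 16.7 ± 1.68 CPM on day 30, against 93.6 ± 5.6 CPM on day 0 (SD, n = 3 each).

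The day 30 libraries were not alike in what remained. Replicate 3 held the highest level of its group for 29 members, replicate 2 for 18 and replicate 1 for 6. The same count over all genes tested is not given here. CPM leaves out the TMM scaling factors of the test, which were 1.008, 1.03 and 1.063 for day 30 replicates 1, 2 and 3. The level in replicate 3 over the mean of replicates 1 and 2 had a median of 1.12 over the members, and it was above 2 for CDC6 (3.14), MCM10 (2.61) and TK1 (2.53). It was lowest for CDT1 (0.396), TIPIN (0.456) and GINS3 (0.535). Replicate 3 held 1, 6 and 6 counts of CDT1, TIPIN and GINS3. It held only 10 counts each of MCM10 and TK1, and 45.5 of CDC6, so the high ratios also rest on low counts. Mitotic markers had a median ratio of 1.58, with all 15 above 1. Their summed level was 49.2, 69.6 and 114 CPM in day 30 replicates 1, 2 and 3, against 3160, 3190 and 3210 CPM on day 0.

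Mesenchymal and neural crest markers also stood apart in that library. Their summed level was 179, 648 and 4600 CPM in day 30 replicates 1, 2 and 3, against 226, 314 and 279 CPM on day 0, and of the 5 tested of 9 listed, 4 rose and 1 fell. Most of it came from the collagen genes COL1A1, COL1A2 and COL3A1, while FOXD3 had no reads on day 30. TWIST1, LUM, DCN and TFAP2A did not pass the filter on low counts. In day 30 replicates 1, 2 and 3, LUM had 0.516, 5.18 and 19.1 CPM and DCN had 0.516, 0.387 and 20.1 CPM. The part of these markers in the levels of the members was not tested. Without day 30 replicate 3, 52 members fell, 50 by 2-fold or more, and the median log2 change was −3.31.

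**Figure D5:**
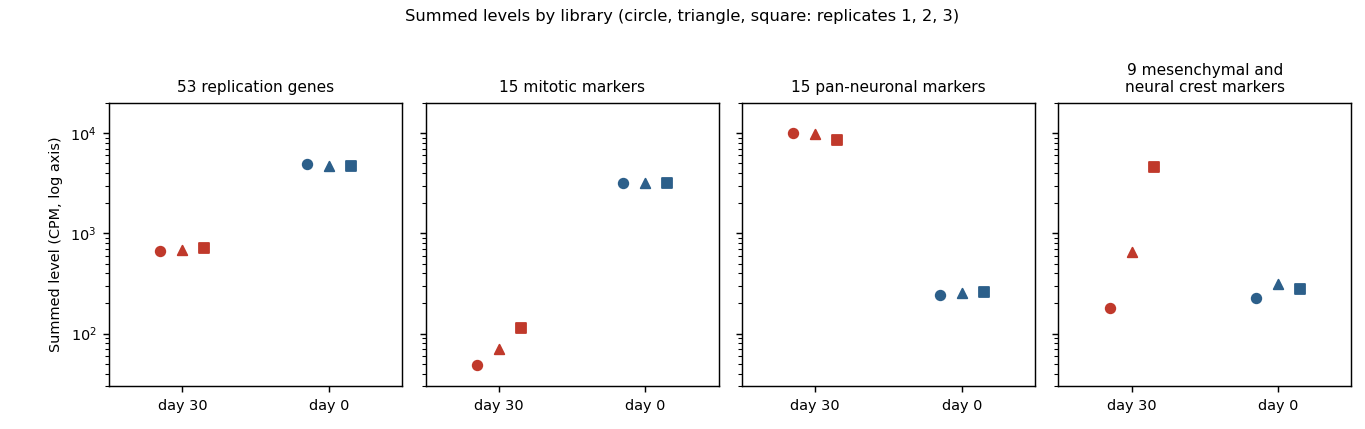
Summed CPM by library, on a log axis, of the 53 replication genes and of 3 marker lists, with day 30 in red, day 0 in blue and the replicates as circles, triangles and squares. The replication genes sum to 661 to 721 CPM on day 30 and 4700 to 4910 CPM on day 0, while the mesenchymal and neural crest sum of day 30 replicate 3 lies far above the others.

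Other genes of replication and its control were read from the same test. Of 60 such genes outside the members, 49 were lower and 5 higher, with 43 at 2-fold lower or beyond and a median log2 change of −1.71. Over all genes tested, 36.8% were lower, 39.8% higher and 24.7% at 2-fold lower or beyond. TICRR, DSCC1, ASF1B, PCLAF, DTL, E2F2 and E2F8, 7 of the 49, passed the filter through day 0. The filter favoured the fall of these 7, which is no support of its own. All 6 firing factors fell, led by TICRR, which brings CDC45 to the origin, at −6.09 ± 0.32. All 4 subunits and partners of alternative clamp loaders fell, led by DSCC1 at −5.59, and all 9 chromatin assembly factors fell by 2-fold or more, led by the histone chaperone ASF1B at −5.67 ± 0.45. ASF1B had 10 counts on day 30 in all, and its log2 change was −7.26 without day 30 replicate 1 and −4.96 without day 30 replicate 2. Among the 4 regulators of the clamp and of licensing, DTL, the adaptor that marks CDT1 for destruction, fell by 6.06. UHRF1, which guides the maintenance methyltransferase to new DNA, had −3.47.

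Topoisomerases differed by form. TOP2A, the form of dividing cells, had 3.72, 9.98 and 19.9 CPM in the day 30 libraries, against 595, 610 and 610 CPM in the day 0 libraries. Its log2 change was −5.95 ± 0.42, whereas TOP1 passed with −0.44 and TOP2B with −0.29. The call of TOP2B was lost under 7 alternatives, among them without day 0 replicate 2 and without day 30 replicates 2 and 3 (edgeR adjusted p of 0.0547, 0.0869 and 0.113). Small polymerase subunits fell less than most members, with POLE3 at −1.87 and POLD4 at −0.20, which did not pass (edgeR adjusted p = 0.432) and shares 21.3% of its exon bases on the same strand. In primer removal 3 of 4 genes fell, led by RNASEH2A at −3.43, which shares 30.8% of its exon bases with a gene on the same strand, and RNASEH2C had −0.15 (edgeR adjusted p = 0.46).

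Of 8 nucleotide enzymes outside the members, 6 were lower and 1 higher. The small reductase subunit that serves resting cells, RRM2B, fell by 2.18, to 34.7 ± 2.86 CPM on day 30, against 147 ± 12.5 CPM on day 0. The mitochondrial thymidine kinase TK2 rose, with 14.7, 17.9 and 19.3 CPM in the day 30 libraries, against 9.22, 4.95 and 6.25 CPM in the day 0 libraries, a log2 change of 1.24 ± 0.22 (edgeR adjusted p = 0.000363). DCK, the deoxycytidine kinase, did not pass, at 0.08 (edgeR adjusted p = 0.69), and SAMHD1, which breaks down deoxynucleotides, passed with −0.41 but not without day 0 replicate 1 or 2 or day 30 replicate 3 (edgeR adjusted p of 0.0759, 0.0576 and 0.106). RRM2B, DCK, SAMHD1, TOP1 and TOP2B were chosen after their values were seen.

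In the E2F and RB family 10 of 17 genes were lower and 4 higher, beside 36.8% and 39.8% of all genes tested. E2F1, an activator of S-phase genes, fell to 1.75 ± 0.662 CPM on day 30, against 20.3 ± 5.21 CPM on day 0 (SD, n = 3 each), a log2 change of −3.53 ± 0.28. E2F2 had a log2 change of −6.09 ± 0.67, with 2 counts in all on day 30 and 135 on day 0, and one of −5.28 without day 30 replicate 2. The repressor E2F7 had −3.28.

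Of the pocket proteins, which bind E2F factors, RB1 rose and RBL1 fell. RB1 had 60.4, 63.8 and 64.0 CPM in the day 30 libraries, against 34.3, 33.7 and 36.4 CPM in the day 0 libraries, a log2 change of 0.76 ± 0.11 (edgeR adjusted p = 0.000112). RBL1 had −1.74 ± 0.18. RBL2, the form of resting cells, rose by 0.40 ± 0.11 (edgeR adjusted p = 0.00668), although 8.3% of its exon bases lie opposite AKTIP. Of the LIN proteins that join pocket proteins in the DREAM complex, LIN37 rose by 2.04 ± 0.27 and LIN52 by 0.49 ± 0.15, whereas LIN9 fell by 2.66. The call of LIN52 was lost without day 0 replicate 2 and without day 30 replicate 2 (edgeR adjusted p of 0.0661 and 0.0627). LIN37 had 6.83, 7.94 and 9.01 CPM in the day 30 libraries, against 1.48, 2.30 and 1.54 CPM in the day 0 libraries, and 26.7% of its exon bases are shared with a gene on the same strand. RBL2, LIN52 and LIN9 were chosen after their values were seen. E2F6, TFDP2 and LIN54, also chosen so, did not pass, at 0.07, −0.04 and 0.15.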

How the data were processed

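After removal of ribosomal RNA, libraries from total RNA were made with a stranded Illumina kit, per the labels' protocols. Per the submitters' processing notes, FastQC 0.11.9 and build hg38 were used. No source used here names the aligner, counter, annotation release or strand setting. What the authors deposited are expected counts per gene, with fractions of reads (92.6% of values are whole, by exact equality), read as such from the values. Rounded whole numbers entered the tests, and 21 members held fractions in at least 1 library. Columns of values not used numbered 0. No overlap or fraction was corrected.

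CPM is the count scaled to a library total of 1000000. Log2 changes and adjusted p-values (2-sided, Benjamini-Hochberg, threshold 0.05) come from edgeR 4.0.16 in R 4.3.3, quasi-likelihood test with TMM scaling after filterByExpr, fitted on 18040 genes of all 6 libraries without a block. The standard error is the absolute log2 change over the square root of F and is approximate. The script was tested on simulated data. Exon lengths, positions and overlaps come from GENCODE 29 (hg38), and CPM per kb uses the union of a gene's exons. Which transcripts these cells made was not tested, so ranks of genes by CPM per kb are approximate.

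Members and gene lists were chosen with earlier results of these data known. All members may be named. In each role the largest fall and members that did not pass are given by library, and of other lists the largest passing fall and rise, with E2F1, E2F7, RB1, RBL1, MKI67 and TOP2A. The result of 1 gene that this rule names is not reported here. Same-numbered replicates did not deviate together (r of 0.075, −0.004 and −0.052), so numbers were not treated as pairs. Alternatives were other scalings, filters, DESeq2 1.42.0, the replicate block and each library left out.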

Additional observations from a re-analysis of the deposited data

How the results depend on the processing

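The number of members that fell was 52, and that of members lower by 2-fold or more 50, under every alternative run. These were total counts as the only scaling, DESeq2 size factors, the DESeq2 Wald test, no filter, the stricter filter (at least 10 CPM in 3 libraries), the replicate block and each library left out. The number that rose was 1, not 0, with total counts only and with the stricter filter, through ORC4, whose rise was 0.27 in both. The cause was not tested. The other 634 of 636 values of single members kept their direction and call. The median log2 change of the members ranged from −3.49 to −3.30 with 1 library left out and was −3.28 with the replicate block, which changed no call of a member. It was smaller in size, at −3.18, with total counts only and with the stricter filter. The members' share of counts ranged from 0.0676% to 0.0705% on day 30 and from 0.47% to 0.481% on day 0 with 1 library left out, and was 0.0694% and 0.479% of the counts of tested genes. Of the values of the 60 other replication and control genes, 695 kept direction and call, and 14 lost a call, all of TOP2B, SAMHD1 and LIN52. The 6 that changed sign were of genes that did not pass: TFDP2 at 0.05 with total counts only and with the stricter filter, DCK at −0.01 and E2F6 at −0.02 without day 0 replicate 1, and DCK at −0.09 and E2F6 at −0.02 without day 30 replicate 1. With 1 library left out these ranged up to 0.23 for DCK and 0.13 for E2F6. Genes outside the members numbered 47 to 49 lower and 4 to 5 higher with 1 library left out. With the stricter filter only 55 of the 60 were tested, and 44 were lower and 4 higher. Over all genes, 6641 fell and 7186 rose, and 7692 and 9147 with no filter. With 1 library left out its group held 2. Low counts limit the size of the fall of MCM10, CDT1, CDC45, GINS2, GINS3, GINS4, POLE2, TK1 and TIPIN on day 30, which lay under 10 counts in at least 1 library.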
